A study of Mus musculus with 9 samples.

Results

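Lipoproteins leave the liver as very low density lipoprotein (VLDL) and high density lipoprotein (HDL), and their protein coats are the apolipoproteins. Apolipoprotein B is the scaffold of the VLDL particle, and the microsomal triglyceride transfer protein, encoded by Mttp, loads lipid onto it in the endoplasmic reticulum. The smaller apolipoproteins then steer the particle: some activate or restrain lipoprotein lipase, some serve as ligands for hepatic receptors and some build HDL. The 10 genes described here, Apob, Mttp, Apoe, Apoc1, Apoc3, Apoa1, Apoa2, Apoa4, Apoa5 and Apom, were chosen by gene symbol, and all 10 were among the 24008 genes of the count table. Of these, 9 passed the filter on low counts and entered the tests with 14379 genes in all. Apom did not pass.

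Liver RNA was sequenced from mice that had all received a diet to induce nonalcoholic steatohepatitis (NASH), with 3 samples in each of 3 groups. Per the study's methods the diet was rich in fat, carbohydrate and cholesterol and came with a fructose and glucose solution. Flox animals, labelled WT in the deposited records, kept the interferon regulatory factor IRF4 in skeletal muscle. F4MKO animals lacked IRF4 in skeletal muscle. F4MKO+FSTL1 animals were F4MKO mice whose gastrocnemius muscle had received an adeno-associated virus of serotype AAV8, which expressed Flag-tagged follistatin-like protein 1 (FSTL1) from a muscle creatine kinase (MCK) promoter, while per the study's methods Flox and F4MKO mice received a GFP virus that the labels do not name. The study's reporting summary describes male C57BL/6J mice, 8 weeks old, and names Myl-Cre as the driver crossed to the floxed IRF4 allele. In the study's methods 8 weeks is the age of wild-type mice before NASH feeding. The virus was injected after weeks on the diet, for which the methods state different lengths. Livers were collected some weeks after the injection. The labels give no age for the sequenced animals. Since both manipulated genes were altered in muscle, liver RNA did not check the group labels. Irf4 had 101 to 132 counts in Flox, 120 to 130 in F4MKO and 10, 92 and 116 in F4MKO+FSTL1, with replicate 1 of the last group standing apart. Fstl1 had 138, 186 and 147 counts in Flox, 456, 234 and 284 in F4MKO, and 114, 67 and 83 in F4MKO+FSTL1. The libraries held 20656976 to 24322984 counted reads each.

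The liver identity of the libraries was plain from its secreted proteins. The 19 listed hepatocyte markers summed to between 110635 and 154333 CPM in every library (CPM are counts-per-million units, scaled by the trimmed mean of M values, TMM), and none of them was at 0. The lowest sum was that of F4MKO replicate 1, and the other 8 libraries lay at or above 136902. Together the 10 genes took 7.39%, 6.35% and 7.05% of all counted reads in the Flox libraries, 5.87%, 6.35% and 6.79% in F4MKO, and 7.47%, 7.53% and 7.32% in F4MKO+FSTL1. The share was lowest in F4MKO replicate 1, and the F4MKO+FSTL1 libraries differed least among themselves.

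The genes lie in 2 clusters and 4 single loci (GRCm38, GENCODE coordinates). On chromosome 9, Apoa1 (46228580 to 46230466, plus strand), Apoc3 (46232933 to 46235636, minus strand), Apoa4 (46240696 to 46243459, plus strand) and Apoa5 (46268633 to 46271919, plus strand) are neighbours. On chromosome 7, Apoc1 (19689481 to 19692660) and Apoe (19696109 to 19699188) share the minus strand. Apoa2 lies on chromosome 1 (171225054 to 171226379), Apob on chromosome 12 (7977648 to 8016835), Mttp on chromosome 3 (138089854 to 138144968) and Apom on chromosome 17 (35128997 to 35132050). Antisense genes Gm47528 and Gm10680 overlapped 69.8% of the Apoa4 exon bases, Gm47544 overlapped 20.8% of those of Apoa5, and Gm43691 and Trmt10a overlapped 9.5% of those of Mttp. The strand setting of the counting was not given, so reads of these 3 genes and their antisense partners could not be told apart.

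RefSeq promoter windows, from 250 bases before to 50 bases after the start of transcription, were found for 8 of the 10 genes, and were not found for Apoc1 and Apoc3. The last 100 bases before the start are printed here for 4 genes, because they contrast the gene called higher with FSTL1 (Apoa2) and the one with the most counted reads (Apoe) with a neighbour in the chromosome 9 cluster (Apoa5) and the gene that moved least (Apob). All are from GRCm38.p6, written 5′ to 3′ on the strand of the gene, and capitals mark matches to the motifs searched.
Apoa2, chr1:171224954-171225053, plus strand: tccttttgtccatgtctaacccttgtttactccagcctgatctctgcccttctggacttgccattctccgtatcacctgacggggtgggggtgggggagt
Apoe, chr7:19699189-19699288, minus strand: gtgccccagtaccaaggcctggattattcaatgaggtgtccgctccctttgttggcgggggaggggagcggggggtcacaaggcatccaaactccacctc
Apoa5, chr9:46268533-46268632, plus strand: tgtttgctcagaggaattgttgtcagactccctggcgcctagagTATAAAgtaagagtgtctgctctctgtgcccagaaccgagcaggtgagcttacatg
Apob, chr12:7977577-7977676, plus strand: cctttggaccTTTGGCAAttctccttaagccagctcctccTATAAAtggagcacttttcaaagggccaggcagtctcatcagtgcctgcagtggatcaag

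The core promoter element of letters TATAAA was found on either strand in the 300-base windows of Apoa2, Apoa5 and Apob, against 13.6% of the 32841 RefSeq mouse promoter windows of that length. In Apoa5 it began at position -56 and in Apob at position -60, whereas in Apoa2 it lay farther out, at position -212. Positions count from the RefSeq start. For Apoa1, Apoa4, Apob, Apom and Mttp that start lies inside the GENCODE gene, so positions depend on the start used. The printed Apob bases end at 7977676, past its GENCODE start at 7977648, so its TATAAA lies nearer to that start. The Apob window also held TTGCNNAA, a C/EBP-type motif, at position -90 on the reverse strand (10.8% of all windows), and that of Apoa5 held CACGTG, an E-box, at position -107 (7.15%). CAAAGTNCA, an HNF4-type motif, was found in the window of Apoa4 (1.41%), CCAAT in that of Apoa2 (37.4%), GGGCGG in that of Mttp (35.7%) and AGGTCA, a nuclear receptor half-site, in none of the 8 (16.3%). None of the 7 motifs was found in the windows of Apoa1, Apoe and Apom. These matches describe letters in short windows and were not tested against the expression values.

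Counts rise with transcript length, so levels of different genes were compared as CPM per kb of exon. The length used was that of all annotated exons of a gene merged, 2138 bases for Apoe and 537 for Apoa2. A single transcript can be shorter than its merged exons, so the order of genes on this scale depends on that choice. Apoa2 and Apoe led on this scale. In Flox livers Apoa2 stood at 16395 ± 2570 CPM per kb (SD, n = 3) and Apoe at 15828 ± 1748, within the spread of each other, and all libraries placed both among the 3 highest genes of the table. Apoa1 followed at 8323 ± 973 and Apoc1 at 6470.2 ± 654, whose ranges over the Flox libraries did not overlap. Apoc3 at 2338 ± 273 and Apoa4 at 1946 ± 379 overlapped, Apoa5 reached 686 ± 98.2 and Apob 309.9 ± 26.7. Mttp, which encodes a lipid transfer protein rather than a secreted coat protein, was lowest at 53.2 ± 1.37 CPM per kb. In F4MKO the ranges of Apoa2 and Apoe overlapped again (12078 ± 1621 and 13903 ± 2292), as did those of Apoa4 (2055 ± 554) and Apoc3 (1652 ± 360.0), with means in the reverse order. In F4MKO+FSTL1 livers Apoa2 lay above Apoe in every library on this scale, at 21264.5 ± 809 against 18081 ± 316 CPM per kb. Without the correction for length Apoe was the higher, at 38657 against 11419 CPM.

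**Figure D1:**
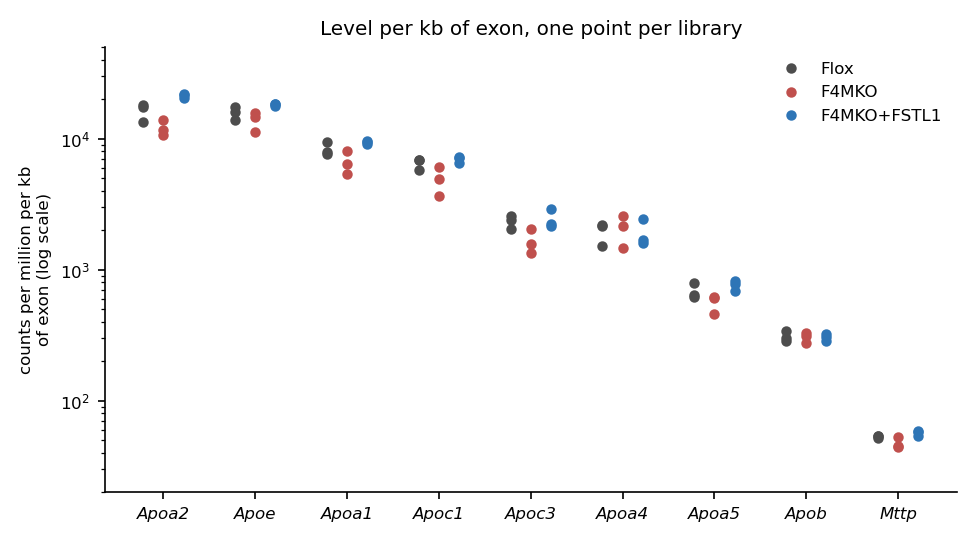
Level of each gene in CPM per kb of exon (y axis, log scale) for the 9 genes that passed the filter, ordered by mean level, with 1 point per library and colours for the 3 groups. Apoa2 and Apoe sit highest, Mttp lowest at about 53.2 CPM per kb in Flox, and the F4MKO+FSTL1 points of Apoa2 lie above all its others.

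The first question was whether loss of IRF4 in muscle was accompanied by a change of these transcripts in liver. No gene of the group was called different between F4MKO and Flox by edgeR's quasi-likelihood test, where a call needed a Benjamini-Hochberg adjusted p under 0.05 over all genes and a change above 1.5-fold. Over all 14379 genes, 0.271% were called (39 genes). At an unadjusted p under 0.05, 3 of the 9 genes were found, all lower in F4MKO, against 16.9% of all genes. With 1 library left out that number ranged from 0 (without Flox replicate 3) to 4 (without F4MKO replicate 3). Over all genes it was 1914 and 2873 in those fits. DESeq2 called none of the 9, with 5 at an unadjusted p under 0.05. Its adjusted p for Apoa2 was 0.0489, with a change under 1.5-fold. None of the 9 had non-overlapping groups, a state reached by 21.8% of all genes. The estimates of 8 genes were below 0 and their median over the 9 was -0.28 on the log2 scale, beside a median of -0.003 over all genes; scaled by total counts 7 of the 9 estimates were below 0, and scaled to the hepatocyte markers 6.

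The second question was whether FSTL1 given to the muscle of F4MKO mice was accompanied by a change in liver. Here Apoa2 alone was called, higher in F4MKO+FSTL1 than in F4MKO, against 14.4% of all genes called (461 higher and 1609 lower). At an unadjusted p under 0.05, 7 of the 9 genes were found, all higher, against 35.3% of all genes in either direction. That number was 4 with total counts (5167 over all genes) and 4 scaled to hepatocyte markers (4971 over all genes). With 1 library left out it was 5 to 7, with 5 without F4MKO replicate 1 (3907 over all genes). The groups of 7 of the 9 did not overlap, again all with the F4MKO+FSTL1 libraries higher, against 39.0% of all genes in either direction. The median log2 fold change of the 9 was 0.43, beside 0.01 over all genes. Apob and Apoa4 were the pair with overlapping groups. DESeq2 also called Apoa2 alone. Its adjusted p was under 0.05 as well for Apoa1 (0.0055), Apoc3 (0.0070), Apoc1 (0.0139), Apoa5 (0.0155), Apoe (0.0256) and Mttp (0.0482). Their changes by DESeq2 were under 1.5-fold. Without F4MKO replicate 3, the F4MKO library with the highest levels of 6 of the 9 genes, edgeR called 4 (Apoa1, Apoa2, Apoc1 and Apoc3). Over all genes it then called 2216, with 591 higher and 1625 lower. Without any other single library 1 of the 9 was called, Apoa2. Scaled to the hepatocyte markers, which moved the median of all genes to -0.25, 6 of the 9 estimates stayed above 0 with a median of 0.20, and scaled by total counts, with a median of -0.18 over all genes, 7 stayed above 0 with a median of 0.25. In bulk tissue, fewer cells of a type and less RNA per cell could not be told apart.

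The third comparison set F4MKO+FSTL1 beside Flox. None of the 9 genes was called by edgeR, against 0.00695% of all genes (1 gene). At an unadjusted p under 0.05 there was 1, Apoa2, against 13.4% of all genes, and DESeq2 also called none and had 1 at that level. The groups of 2, Apoa2 and Apoe, did not overlap, both higher in F4MKO+FSTL1, against 18.2% of all genes. The median log2 fold change was 0.10. The comparisons share libraries, the F4MKO group entering the first as the numerator and the second as the denominator, so opposite signs in the first 2 are not separate observations.

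**Figure D2:**
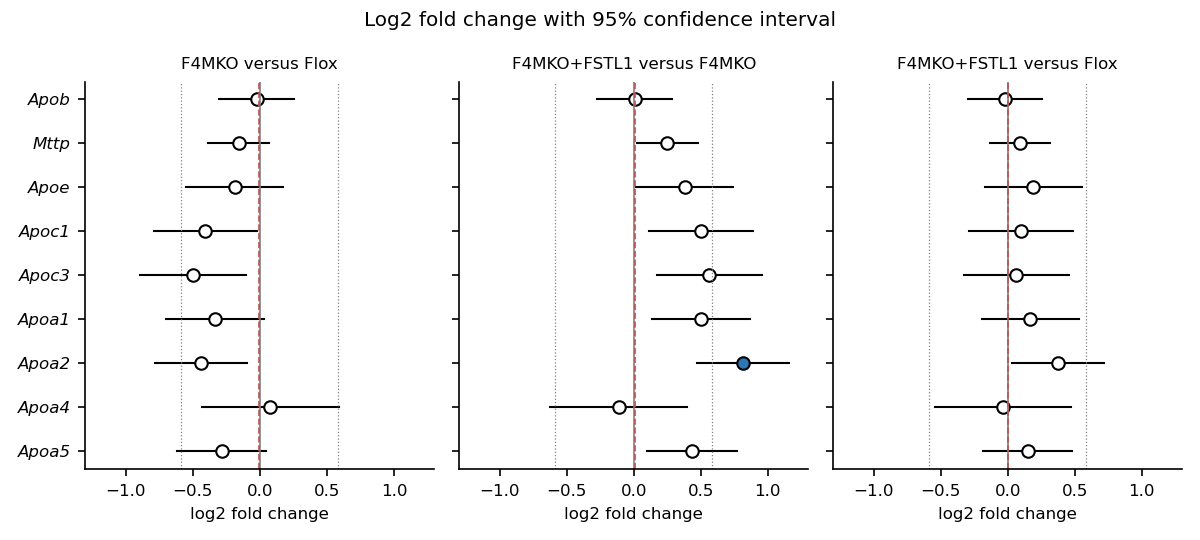
Log2 fold change (x axis) of the 9 tested genes in the 3 comparisons, with 95% confidence intervals as horizontal lines, filled points for called genes, dotted lines at 1.5-fold and a dashed line at the median of all genes. Apoa2 at 0.82 in F4MKO+FSTL1 versus F4MKO is the only filled point, and Apob stays within 0.03 of 0 in every panel.

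Apob, the scaffold protein of VLDL, was flat. Its libraries read 4212, 4732 and 4012 CPM in Flox, 4313, 4551 and 3876 in F4MKO, and 4276, 4503 and 4012 in F4MKO+FSTL1. The 3 groups overlapped fully, with means of 4319 ± 372, 4246 ± 343 and 4264 ± 246 CPM (SD, n = 3). The log2 fold change was -0.02 for F4MKO against Flox (95% confidence interval -0.30 to 0.25) and 0.01 for F4MKO+FSTL1 against F4MKO (-0.27 to 0.28), so the intervals excluded a 1.5-fold change but allowed smaller ones. Its sign in both comparisons turned when libraries were scaled by total counts or to hepatocyte markers.

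Mttp, which lipidates apolipoprotein B, varied little between libraries. It was read at 334, 336 and 321 CPM in Flox, 277, 329 and 282 in F4MKO, and 365, 359.7 and 332 in F4MKO+FSTL1. Every F4MKO+FSTL1 library was above every F4MKO library, although the highest F4MKO value came within 3 CPM of the lowest of that group. The difference was 1.19-fold (95% confidence interval 1.02 to 1.39, log2 0.25 ± 0.10 SE, edgeR adjusted p = 0.110), and it was -0.0013 on the log2 scale when libraries were scaled to hepatocyte markers. F4MKO was 0.90-fold of Flox (0.77 to 1.05, adjusted p = 0.470).

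Apoe, the ligand by which remnant particles enter hepatocytes through the LDL receptor family, had the most counted reads of the 10 genes, a rank that is not corrected for length. Flox libraries held 37319, 29888 and 34310.2 CPM, F4MKO libraries 24209, 31390 and 33576, and F4MKO+FSTL1 libraries 39124, 38964 and 37882. The F4MKO+FSTL1 libraries were closely spaced and lay above all 6 others. Against F4MKO the difference was 1.30-fold (1.01 to 1.67, log2 0.38 ± 0.17 SE, edgeR adjusted p = 0.126) and against Flox 1.14-fold (0.89 to 1.47, adjusted p = 0.70006), so neither passed. F4MKO replicate 1 was the lowest library, and without it the log2 fold change of F4MKO+FSTL1 against F4MKO was 0.25.

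Apoc1, beside Apoe on chromosome 7, encodes a small surface protein that hinders receptor uptake of remnants. It was read at 5090 CPM, 4252 and 5100 in Flox, at 2713, 3678 and 4515 in F4MKO, and at 4833, 5265 and 5368 in F4MKO+FSTL1. The F4MKO libraries were the most scattered (coefficient of variation 24.8%, against 10.1% in Flox and 5.50% in F4MKO+FSTL1), and each lay below all F4MKO+FSTL1 libraries. The estimate was 1.42-fold higher with FSTL1 (1.08 to 1.85, edgeR adjusted p = 0.0637) and 0.76-fold in F4MKO against Flox (0.58 to 0.99, adjusted p = 0.279), neither of which passed.

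Apoc3 encodes an inhibitor of lipoprotein lipase and of remnant clearance. Flox livers held 2433, 2068 and 2610.1 CPM, F4MKO livers 1366, 1582 and 2078, and F4MKO+FSTL1 livers 2199, 2267 and 2971. F4MKO replicate 3 reached the lowest Flox value, and the F4MKO+FSTL1 libraries were all above F4MKO. With FSTL1 Apoc3 was 1.48-fold higher than in F4MKO (1.13 to 1.94, log2 0.56 ± 0.18 SE, edgeR adjusted p = 0.0457), which passed the threshold on p and missed the one on fold. Against Flox, F4MKO was at 0.71-fold (0.54 to 0.93, adjusted p = 0.200), the lowest estimate of the 9 genes in that comparison.

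Apoa1, the main structural protein of HDL and an activator of the esterifying enzyme LCAT, was read at 11646.5, 9364 and 9850.5 CPM in Flox, 6604, 7932 and 9946 in F4MKO, and 11827, 11243 and 11614 in F4MKO+FSTL1. The F4MKO+FSTL1 libraries clustered tightly (coefficient of variation 2.56%, against 20.6% in F4MKO) and stood above all F4MKO libraries. The difference of 1.42-fold (1.10 to 1.82, log2 0.50 ± 0.17 SE) had an edgeR adjusted p = 0.0520 and did not pass. F4MKO was at 0.79-fold of Flox (0.62 to 1.02, adjusted p = 0.334).

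Apoa2, the other major structural protein of HDL, rose with FSTL1. Its libraries held 9776, 7224 and 9411 CPM in Flox, 5743, 6271 and 7444 in F4MKO, and 10918, 11656 and 11683 in F4MKO+FSTL1. All F4MKO+FSTL1 libraries lay above all 6 others, whereas Flox and F4MKO overlapped through Flox replicate 2 and F4MKO replicate 3. Group means were 8804 ± 1380.2, 6486 ± 871 and 11419 ± 434 CPM (SD, n = 3). F4MKO+FSTL1 exceeded F4MKO 1.76-fold (95% confidence interval 1.39 to 2.24, log2 0.82 ± 0.16 SE, edgeR adjusted p = 0.00509), with every F4MKO+FSTL1 library above every F4MKO library. Leaving out any 1 library gave log2 values of 0.73 to 0.93 and adjusted p-values of 0.00543 to 0.0250, and without F4MKO+FSTL1 replicate 1, the library with few Irf4 counts, the value was 0.85. Scaled to hepatocyte markers the log2 value was 0.57 with an adjusted p of 0.00331, under the fold threshold, so the call was lost. Against Flox, the F4MKO+FSTL1 estimate was 1.30-fold (1.02 to 1.65, adjusted p = 0.329), and F4MKO against Flox was 0.74-fold (0.58 to 0.93, adjusted p = 0.197).

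Apoa4, made by the intestine and in mice also by the liver, did not follow the others. It stood at 3884, 2739 and 3972 CPM in Flox, 3899.5, 4640.1 and 2652 in F4MKO, and 4394, 2909.98 and 3043 in F4MKO+FSTL1. High and low libraries occurred in every group, and the coefficients of variation of 19.5%, 26.9% and 23.8% were the largest of the tested genes in Flox, F4MKO and F4MKO+FSTL1. The estimates were 1.06-fold for F4MKO against Flox (0.74 to 1.50, edgeR adjusted p = 0.894) and 0.92-fold for F4MKO+FSTL1 against F4MKO (0.65 to 1.32, adjusted p = 0.764). Intervals of this width included a 1.5-fold change in the first comparison and a fall of that size in the second.

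Apoa5, a promoter of triglyceride hydrolysis by lipoprotein lipase, was read at 1626, 1553 and 2014 CPM in Flox, 1168, 1539 and 1557 in F4MKO, and 1967, 1737 and 2059 in F4MKO+FSTL1. Every F4MKO library was below every F4MKO+FSTL1 library, and the lowest was F4MKO replicate 1. The difference was 1.35-fold (1.07 to 1.70, log2 0.43 ± 0.15 SE, edgeR adjusted p = 0.0634) and did not pass. Within the chromosome 9 cluster, Apoa1, Apoc3 and Apoa5 thus had estimates of 0.50, 0.56 and 0.43 on the log2 scale in this comparison, and Apoa4, which lies between Apoc3 and Apoa5, had -0.11.

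**Figure D3:**
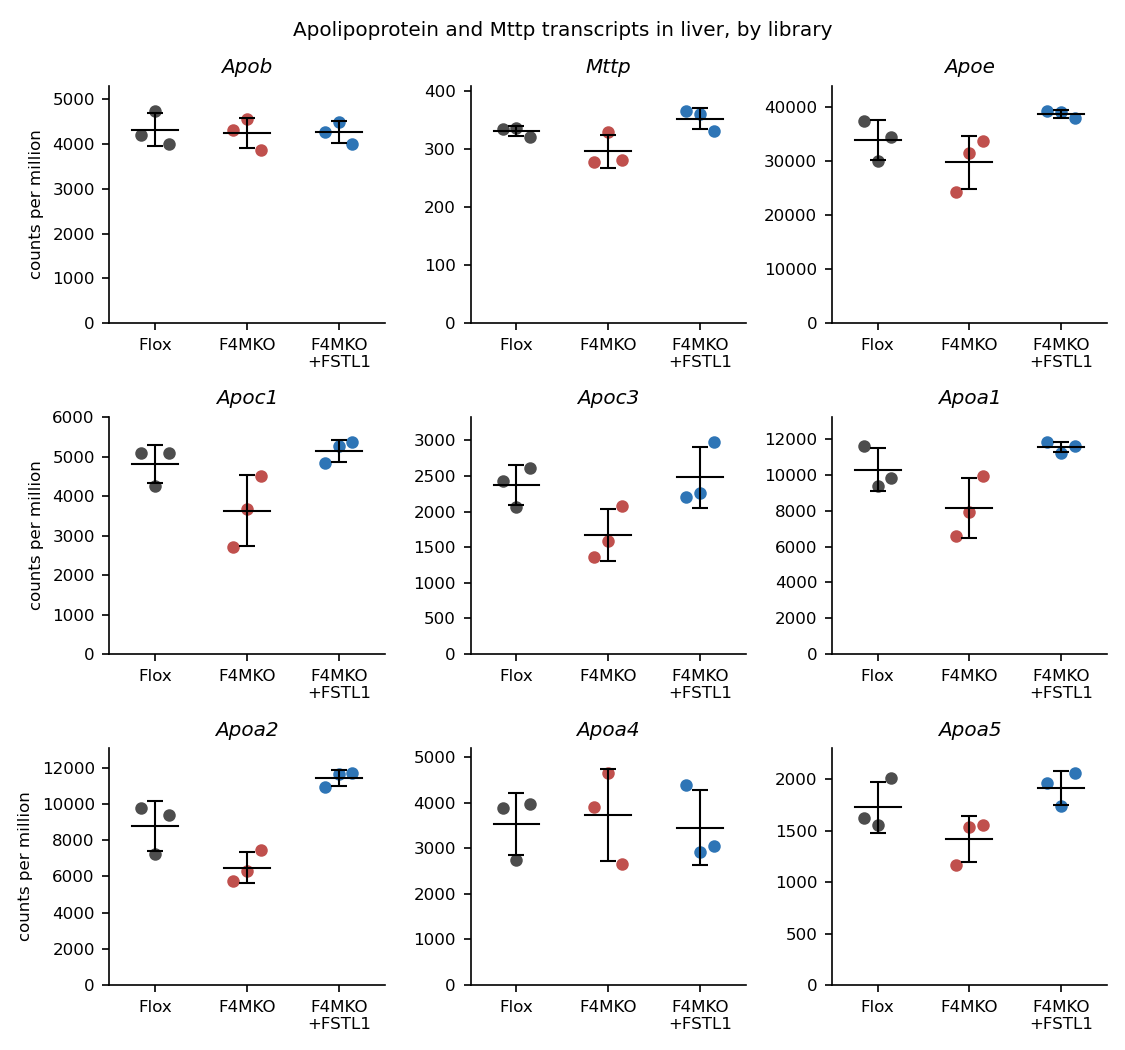
CPM of the 9 tested genes (y axes, linear from 0) by group, with 1 point per library, a horizontal line at the group mean and bars for the SD (n = 3). Apoa2 shows 3 F4MKO+FSTL1 libraries between 10918 and 11683 CPM above all others, Apob shows overlapping groups with means of 4319, 4246 and 4264, and F4MKO replicate 1, the leftmost F4MKO point, is lowest in Mttp, Apoe, Apoc1, Apoc3, Apoa1, Apoa2 and Apoa5.

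The genes kept their proportions to each other to different degrees. Over the 36 pairs of tested genes, the log2 ratio of Apoa1 to Apoe varied least over the 9 libraries, with a range of 0.31, followed by Apoa1 to Apoc1 at 0.34 and Apoc1 to Apoc3 at 0.36. The widest range, 1.57, was that of Apoa2 to Apoa4. The ratio of Apob to Mttp, the scaffold and its lipid loader, spanned 0.41, with group means of 3.706, 3.844 and 3.598 in Flox, F4MKO and F4MKO+FSTL1. These ratios describe genes measured in the same libraries and carry no test. The genes whose pattern over the 9 libraries was most like that of Apoa2, by the root mean square difference of log2 CPM centred on each gene's mean, were Pradc1 (0.085), Ppdpf (0.087) and Slc9a3r1 (0.088), against an SD of 0.39 for Apoa2 itself.

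Apom, a carrier of sphingosine-1-phosphate on HDL, could not be read in these libraries. It had 1, 3 and 1 counts in Flox, 1, 0 and 2 in F4MKO and 0 in each F4MKO+FSTL1 library, 8 in total. All groups lay at or under 3 counts, the limit that a count of 0 allows, so no fold is given. Low counts were shared by its neighbours. Of the 36 other RefSeq protein-coding genes within 200 kb, 19 were listed in the table, and 7 of these (36.8%) had at most 3 counts in every library, against 2101 of 16247 (12.9%) of all listed protein-coding genes. Among them were Csnk2b, a casein kinase subunit, Bag6, a chaperone, and Prrc2a, an RNA-binding protein, all broadly expressed genes and all at 0 or 1 counts in every library. H2-D1, 134.9 kb away, had 991 to 1938 counts. The cause of the low counts was not tested, and nothing about Apom expression in liver is drawn from them.

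**Figure D4:**
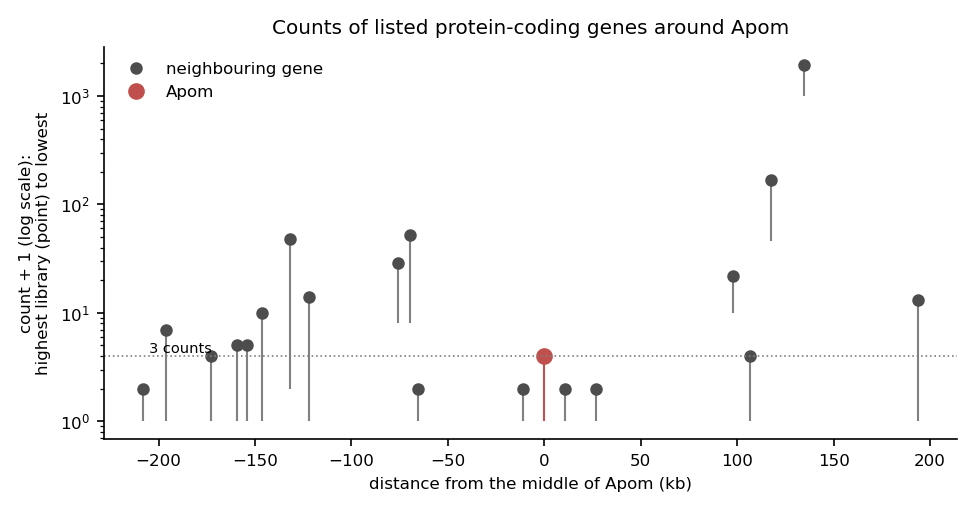
Counts of the 19 listed protein-coding neighbours of Apom (y axis, count plus 1, log scale) by distance from the middle of Apom in kb (x axis), with points at the highest of the 9 libraries, lines down to the lowest, and a dotted line at 3 counts. Apom and its nearest listed neighbours lie at or under the line, and H2-D1 at 134.9 kb reaches 1938.

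The pathway around these genes was followed in 4 lists. Their calls in F4MKO+FSTL1 against F4MKO stand beside 14.4% of all genes called, 461 higher and 1609 lower. Among 18 tested other apolipoproteins and lipid carriers, Saa4, an acute-phase family member carried by HDL, rose in F4MKO+FSTL1 against F4MKO from 252 ± 33.5 to 456 ± 86.7 CPM (log2 0.86 ± 0.15 SE, edgeR adjusted p = 0.00372). Pltp, the phospholipid transfer protein, fell from 42.7 ± 10.8 to 27.7 ± 4.47 CPM (log2 -0.62, adjusted p = 0.0446), and Apobr, a receptor for apolipoprotein B-48 on phagocytes, fell from 3.36 ± 0.49 to 2.02 ± 0.56 CPM (log2 -0.73, adjusted p = 0.0496). The other 15 did not pass, and the median of the list was 0.15.

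Of 31 tested genes of VLDL assembly and export, Sort1, encoding the sorting receptor sortilin, fell from 12.1 ± 3.41 to 5.71 ± 0.86 CPM (log2 -1.08 ± 0.29 SE, edgeR adjusted p = 0.0218). The other 30 did not pass. The median of the list was 0.13, and 25 of the 31 estimates were above 0.

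Of 24 tested genes of lipolysis and lipoprotein receptors, 3 were called lower and none higher. Lpl, lipoprotein lipase, was at 176, 209 and 173 CPM in F4MKO and 46.2, 56.0 and 62.6 in F4MKO+FSTL1 (log2 -1.76 ± 0.22 SE, edgeR adjusted p = 0.00116). The groups were far apart, with Flox in between at 165, 104 and 84.9 CPM. Vldlr, the VLDL receptor, fell from 4.72 ± 2.67 to 1.48 ± 0.21 CPM (log2 -1.66, adjusted p = 0.0105) and Abcg1, a cholesterol exporter, from 21.1 ± 3.67 to 10.2 ± 2.02 CPM (log2 -1.05, adjusted p = 0.00470). The median of the list was 0.03.

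Of 30 regulators of apolipoprotein genes, Cebpa, a transcription factor of the hepatocyte, rose from 306 ± 22.4 to 485 ± 57.6 CPM (log2 0.66 ± 0.14 SE, edgeR adjusted p = 0.00823), and no other passed. The median was 0.25. In the other comparisons edgeR called no gene of the 4 lists. For F4MKO against Flox, 4, 3, 3 and 6 genes of the 4 lists in the order given had an unadjusted p under 0.05. Over all genes the share was 16.9%, and DESeq2 called none of the listed genes. For F4MKO+FSTL1 against Flox 3, 2, 7 and 2 had an unadjusted p under 0.05, against 13.4% of all genes, and DESeq2 called 1, Lpl.

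Markers of other liver cells moved in this comparison and, with fewer calls, in the others. In F4MKO+FSTL1 against F4MKO, edgeR called 14 of 18 macrophage markers lower, beside 14.4% of all genes called. Of their estimates 16 were lower, with a list median of -0.99. Their summed level was 1477 to 1631 CPM in F4MKO, 648 to 1029 in F4MKO+FSTL1 and 1111 to 1682 in Flox. Of 10 stellate cell and fibroblast markers 7 were called lower, and all 10 estimates were lower (median -0.84). Their sums were 587 to 773 CPM in F4MKO, 279 to 387 in F4MKO+FSTL1 and 433 to 509 in Flox. Of 6 tested cholangiocyte markers 5 were called lower, and all 6 estimates were lower (median -1.91). Their sums were 163 to 435 CPM in F4MKO, 36.6 to 54.8 in F4MKO+FSTL1 and 51.4 to 90.1 in Flox. No macrophage or stellate marker was at 0 in any library. In F4MKO against Flox, edgeR called 1 macrophage and 2 cholangiocyte markers higher, against 0.271% of all genes. All 10 stellate estimates were higher there, and none was called. In F4MKO+FSTL1 against Flox, edgeR called no marker of these lists and DESeq2 called 9 macrophage markers lower. At an unadjusted p under 0.05, 17 of 18 macrophage markers were lower, against 13.4% of all genes. Among 19 hepatocyte markers, Serpina1c, Cyp2e1, Serpina3k and Serpina1a were called higher and none was called lower (median 0.32). Of the 19 estimates 12 were higher and 7 lower, and Hpx, the lowest at -0.39, stood at 4296 to 4551 CPM in F4MKO and 3024 to 3722 in F4MKO+FSTL1, an adjusted p of 0.048 by edgeR with a change under 1.5-fold. Endothelial markers, 10 tested, had no call by edgeR or DESeq2 and 2 at an unadjusted p under 0.05. The part of these cell types in the differences of the apolipoproteins was not tested beyond the scaling to hepatocyte markers, under which the log2 value of Apoa2 was 0.57.

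**Figure D5:**
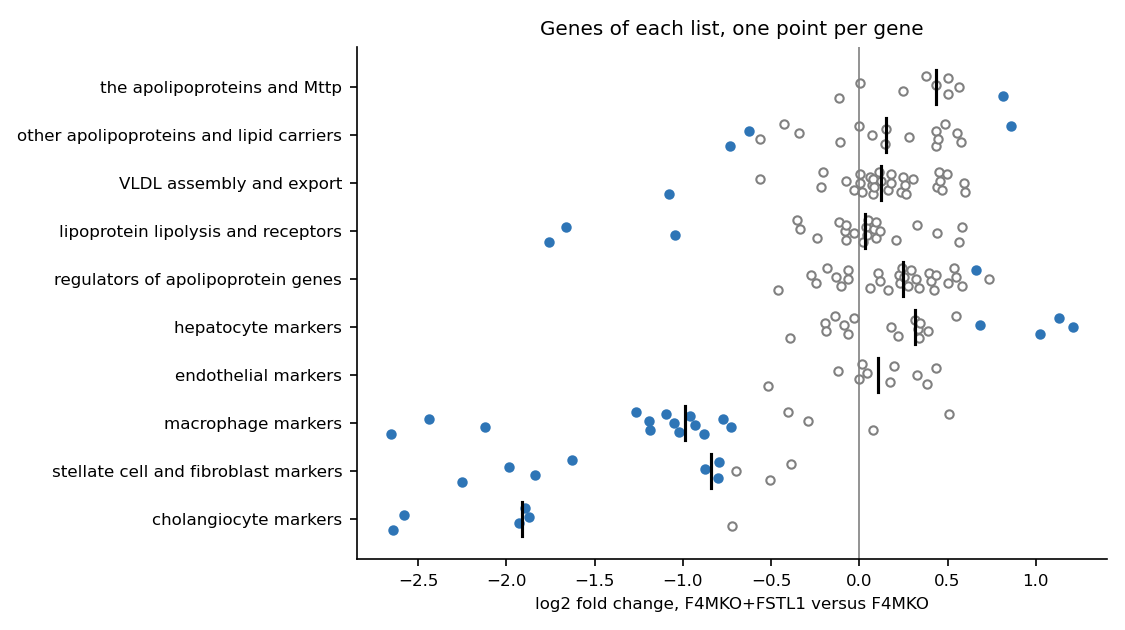
Log2 fold change of F4MKO+FSTL1 against F4MKO (x axis) for the genes of 10 lists, with 1 point per gene, filled where called, and a black bar at the list median. The apolipoproteins and Mttp centre at 0.43, while macrophage, stellate and cholangiocyte markers centre at -0.99, -0.84 and -1.91.

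Other lists that can move with the hour or state of sampling were read beside the apolipoproteins and beside the 14.4% of all genes called. Of 12 clock genes, 4 were called higher and 2 lower in F4MKO+FSTL1 against F4MKO, and of 16 genes of the fasting and feeding response 3 were called lower. Of 5 tested hepatocyte genes that differ between the sexes 2 were called higher, while of 4 tested sex-linked genes none was called and 1 had an unadjusted p under 0.05. Adipocyte markers had 2 of 3 tested genes higher, and of the enterocyte list Fabp2 alone was tested and was higher. Of 7 tested lymphocyte markers none was called, and none had an unadjusted p under 0.05. Their part in the differences of the apolipoproteins was not tested.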

How the data were processed

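Per the labels and the study's methods, liver RNA was sequenced as 150 bp paired-end reads on a BGIseq500, trimmed with Trim Galore 0.6.7, mapped to mm10 with HISAT2 2.2.1 and counted with featureCounts 2.0.1. The authors deposited raw whole-number counts per gene symbol, and the gene annotation, strand and multi-mapping settings were not given in the sources used here. From these counts, edgeR 4.0.16 (R 4.3.3) was fitted to all 9 libraries with TMM scaling (factors 0.927 to 1.17) after filterByExpr with a minimum count of 10 and a minimum total of 15, and genes were tested with glmQLFTest and Benjamini-Hochberg adjustment over 14379 genes. SEs are the absolute log2 fold change over the root of F. The study used DESeq2, which is an alternative here (1.42.0). The method was tested on simulated data. CPM values are means with SD over 3 libraries, and for log2 CPM 2 counts were added as the prior. Nothing in the labels says whether replicates were separate animals, so p-values measure the spread between these samples. The largest Pearson correlation between 2 libraries was 0.988, and no library was merged. The genes, lists and tests were chosen with earlier results of these data known. Genes were named by a rule: the 10 genes, the 3 largest rises and falls called per pathway list, and the 3 most similar patterns. Csnk2b, Bag6, Prrc2a, H2-D1 and the 5 hepatocyte markers were named after their values were seen. The same holds for Cfd, Cidea, Fabp4 and Fabp2. Exon lengths are those of the merged exons of each gene in GENCODE vM21, and promoter windows are from RefSeq.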

Additional observations from a re-analysis of the deposited data

How the results depend on the processing

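The call of Apoa2 in F4MKO+FSTL1 versus F4MKO held under DESeq2, DESeq2 size factors, total counts, no filter, only the 6 libraries compared, the replicate block, removal of length and GC trends (chosen after seeing the data, over 13387 of 14379 genes) and the removal of any 1 library. It was lost when libraries were scaled to hepatocyte markers (0 of the 9 genes called, log2 0.57). Without the fold threshold edgeR called 2 of the 9, Apoa2 and Apoc3, against 3001 of all 14379 genes. By DESeq2 the adjusted p was under 0.05 also for Apoa1, Apoa5, Apoc1, Apoe and Mttp. Leaving out 1 library gave 1 to 4 calls by edgeR. The 4 (Apoa1, Apoa2, Apoc1 and Apoc3) were called without F4MKO replicate 3, where 2216 of all genes were called. In the other comparisons none of the 9 was called under any setting. The cause of these changes was not tested.

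Same-numbered libraries had correlated deviations of -0.10 to 0.30. In F4MKO versus Flox and F4MKO+FSTL1 versus F4MKO each exceeded the largest other-numbered correlation, for replicate 3 at 0.17 against -0.07 and 0.30 against -0.15. In F4MKO+FSTL1 versus Flox replicates 1 and 2 did not (0.00077 against 0.15 and -0.10 against 0.17). The main fit did not take the numbers as pairs, and pairing was not settled. With the replicate block the counts over all genes were 134, 2170 and 15, and 1 of the 9 genes was called. Over all genes, F4MKO versus Flox had 39 calls, and 338 with DESeq2, 59 with total counts, 133 scaled to hepatocyte markers, 478 without the filter, 11 with 6 libraries and 0 to 100 with 1 library left out. F4MKO+FSTL1 versus Flox had 1, and 284, 2, 19, 379 and 0 in the same order, 2 with DESeq2 size factors, 3 with length and GC removed and 0 to 101 with 1 left out. F4MKO+FSTL1 versus F4MKO had 2070 and 1295 to 2216 with 1 left out. Its split of 461 higher and 1609 lower was 215 and 2282 with total counts, 174 and 2443 scaled to hepatocyte markers, and 724 and 1348 with length and GC removed. The median of all genes in F4MKO versus Flox, F4MKO+FSTL1 versus F4MKO and F4MKO+FSTL1 versus Flox was 0.11, -0.18 and -0.08 with total counts, 0.19, -0.25 and -0.07 scaled to hepatocyte markers, and -0.05, 0.13 and 0.06 with length and GC removed.

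No called gene among the 10 changed sign, and the signs that did belonged to genes that were not called. In F4MKO versus Flox they were Apob (0.091 with total counts, 0.17 scaled to hepatocyte markers) and Mttp (0.027 scaled to hepatocyte markers). In F4MKO+FSTL1 versus F4MKO they were Apob (-0.19, -0.26, and -0.00054 with 6 libraries) and Mttp (-0.0013). In F4MKO+FSTL1 versus Flox they were Apoa4 (0.052) and Apob (0.041) with length and GC removed, and Apoc3 (-0.013 and -0.0020). Leaving out 1 library, Apoa4 ranged from -0.11 to 0.27, -0.32 to 0.074 and -0.25 to 0.076 in the 3 comparisons, Apob from -0.081 to 0.044, -0.054 to 0.057 and -0.068 to 0.053, and Apoc3 in the last from -0.080 to 0.15. With 3 libraries a group, differences well under 1.5-fold were not detectable for scattered genes such as Apoa4.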
